A study of Mus musculus with 72 samples.

Results

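A set of 6 receptor genes for noradrenaline, adrenaline and dopamine were followed through single Pet1 neurons of the mouse dorsal raphe: the alpha1-adrenergic receptors Adra1a, Adra1b and Adra1d, the alpha2-adrenergic receptors Adra2a and Adra2c, and the dopamine receptor Drd2. They were chosen by name, as members of 2 receptor families, and not by a measured value. All 6 were among the 24256 genes of the table of manually sorted cells, and 5 were among the 17231 genes of the filtered 10X table, in which Adra1d was not listed.

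Pet1 (Fev) is a transcription factor of serotonin neurons, and a transgene with its regulatory sequence drives the recombinase Flpe there, so every cell studied came from mice carrying Pet1::Flpe and a recombinase-dependent fluorescent reporter. The 10X table held 2350 cells sorted from the whole dorsal raphe of pooled mice of 2 genotypes, Pet1::Flpe+/-; hM3Dq+/+ (mean age 65.5 postnatal days) and En1::cre+/-; Pet1::Flpe+/-; RC::FrePe+/- (mean age 59 days). En1::cre limits the second genotype to neurons derived from a part of the embryonic hindbrain and midbrain. The manual table held 70 cells picked one by one, all from mice with Pet1::Flpe+/- and RC::FrePe+/- plus a Cre driver, +/- in each case. Sert::cre cells came from the dorsolateral (dlDR, 10 cells), dorsomedial (dmDR, 9), ventromedial (vmDR, 8) and caudal (cDR, 6) dorsal raphe at 63 or 90 postnatal days, the caudal group at 63 days alone. P2ry1::cre cells came from the cDR (10 cells, 62 to 74 days), Npy2r::cre cells from the cDR (10) and the rostral dorsal raphe (rDR, 9) at 77 or 87 days, and Crh::cre cells from the rDR (8) at 83 or 119 days. Each Cre driver reads the activity of its gene at any time in the cell's history, and Cre driver, subregion and age were partly tied to each other. No label named the animal of a cell, so cells were not treated as replicates and no p-value is given.

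Noradrenaline reaches the dorsal raphe from brainstem noradrenergic neurons and holds serotonin neurons in tonic firing through alpha1 receptors, which couple to Gq and phospholipase C. Alpha2 receptors couple to Gi and Go proteins, which lower cyclic AMP and open inwardly rectifying potassium channels, and they act both on noradrenergic terminals and on the neurons those terminals contact. The D2 receptor, Drd2, uses the same Gi and Go route, with dopamine as its ligand.

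Gene models were read from GENCODE vM21 on GRCm38, which is the assembly of the mm10 build used for the deposited counts. Adra1a lies at chr14:66635251-66771168 (plus strand, 5 exonic blocks) and Adra1b at chr11:43774606-43901210 (minus strand, 5 blocks). Adra1d lies at chr2:131545850-131562283 (minus strand, 2 blocks), where the gene Gm14285 overlaps it on the opposite strand. Adra2a at chr19:54044151-54048982 and Adra2c at chr5:35278319-35281763 are both on the plus strand and made of 1 exonic block each. Drd2 lies at chr9:49340627-49408177 (plus strand, 8 blocks). No gene of the annotation overlaps any of the 5 receptor genes other than Adra1d.

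The start-site windows of the alpha2 pair are shown because those genes, both without introns in the annotation, had different profiles over the cells. Each window runs from 250 bases before to 50 after the gene's start in RefSeq on GRCm38.p6, and each is 300 bases long. GENCODE places both starts further upstream, so by the spans above the Adra2a window lies wholly, and the Adra2c window almost wholly, inside the gene. The Adra2a window is chr19:54045009-54045308 (plus strand) and the Adra2c window chr5:35278316-35278615 (plus strand). Both strands were searched for 3 motifs, and capitals mark the matches. The ETS core, of the kind bound by the family of factors to which Pet1 belongs, was spelled CGGAAG. The core bound by GATA factors, which also act in serotonin neurons, was spelled AGATAA. The nuclear receptor core was spelled AGGTCA. No window held more than 1 match, so no motif overlapped another.
Adra2a: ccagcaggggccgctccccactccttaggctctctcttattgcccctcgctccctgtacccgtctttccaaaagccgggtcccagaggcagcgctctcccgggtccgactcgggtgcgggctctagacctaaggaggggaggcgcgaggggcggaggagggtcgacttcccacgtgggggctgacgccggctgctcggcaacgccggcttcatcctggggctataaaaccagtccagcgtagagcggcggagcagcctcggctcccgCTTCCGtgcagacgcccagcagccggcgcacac
Adra2c: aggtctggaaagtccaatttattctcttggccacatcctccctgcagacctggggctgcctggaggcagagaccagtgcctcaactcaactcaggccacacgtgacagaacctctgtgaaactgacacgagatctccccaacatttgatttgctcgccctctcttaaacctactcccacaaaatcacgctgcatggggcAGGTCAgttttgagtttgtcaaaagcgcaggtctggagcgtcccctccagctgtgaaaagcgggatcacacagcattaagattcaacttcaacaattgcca
The Adra2a window held 1 match to the ETS core and the Adra2c window 1 match to the nuclear receptor core. Of all 32851 RefSeq windows of this kind, 16.9% held the ETS core, 16.3% the nuclear receptor core and 11.2% the GATA core. Base composition differed more: 68.7% of the Adra2a window was G or C, with 28 CpG steps, against 51.3% and 7 in the Adra2c window and a median of 52.7% over all windows. A match describes the letters only, and no match in a window says nothing of the factor.

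The 10X cells were placed in 6 classes by the transcripts that separate known kinds of Pet1 neuron: Gad2 (a GABA-synthesizing enzyme), Slc17a8 (the vesicular glutamate transporter VGLUT3), Met (a receptor tyrosine kinase) and Tph2 (the serotonin-synthesizing enzyme). Cells with at least 2 Met UMIs formed the Met class (103 cells). Of the rest, cells under 500 CPM of Tph2 (CPM being the usual scale of a gene's share of all counts) formed the low-Tph2 class (131). The remainder was split at 50 CPM into Gad2 cells (879), Slc17a8 cells (676), cells with both (240, double-positive) and cells with neither (321, double-negative). Of the cells in that remainder, 390 lay between 25 and 100 CPM of Gad2 and 279 between 25 and 100 CPM of Slc17a8, so the classes are ranges rather than separate kinds. Fev was detected in all 2350 cells and in all 70 manual cells. Total UMIs per 10X cell ranged from 12320 to 134079, and the median was lowest in the low-Tph2 class (27329, against 45568 in Met cells and 55913 to 63920.5 in the other 4 classes).

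Adra1b, the alpha1B receptor, was the most evenly spread of the receptors. Its level from summed UMIs was 186 CPM in double-positive, 182 in double-negative, 171 in Gad2, 151 in Slc17a8, 131 in Met and 118 in low-Tph2 cells. The 95% Poisson intervals of neighbours in this order overlapped for the first pair (179 to 193 and 176 to 189) and the last pair (121 to 142 and 107 to 129), and were separate for the others. At least 1 Adra1b UMI was found in 99.0% or more of the cells of 5 classes and in 80.9% of low-Tph2 cells. Single cells spread widely around these values: in Gad2 cells the lowest was 0, the median 163 and the highest 562 CPM. Here and below, intervals for UMIs cover counting error only, since cells of pooled mice hold no measure of the spread between animals.

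Adra1a, the alpha1A receptor, was sparser and more uneven. It stood at 9.58 CPM (interval 6.71 to 13.3) in low-Tph2, 6.71 (6.03 to 7.44) in Gad2, 6.14 in double-positive and 4.81 in double-negative cells, and all neighbours in this order had overlapping intervals. It was 2.12 CPM (1.71 to 2.61) in Slc17a8 cells, below the double-negative interval, and 0.627 CPM (0.129 to 1.83) in Met cells, where 3 UMIs were counted in 103 cells. A UMI of Adra1a was found in 31.7% of Gad2 cells, 12.1% of Slc17a8 cells and 2.91% of Met cells. With each cell thinned to 20000 UMIs, which leaves out 53 shallower cells, these shares were 12.7%, 4.64% and 1.98%, and the share in low-Tph2 cells was 15.0%.

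**Figure D1:**
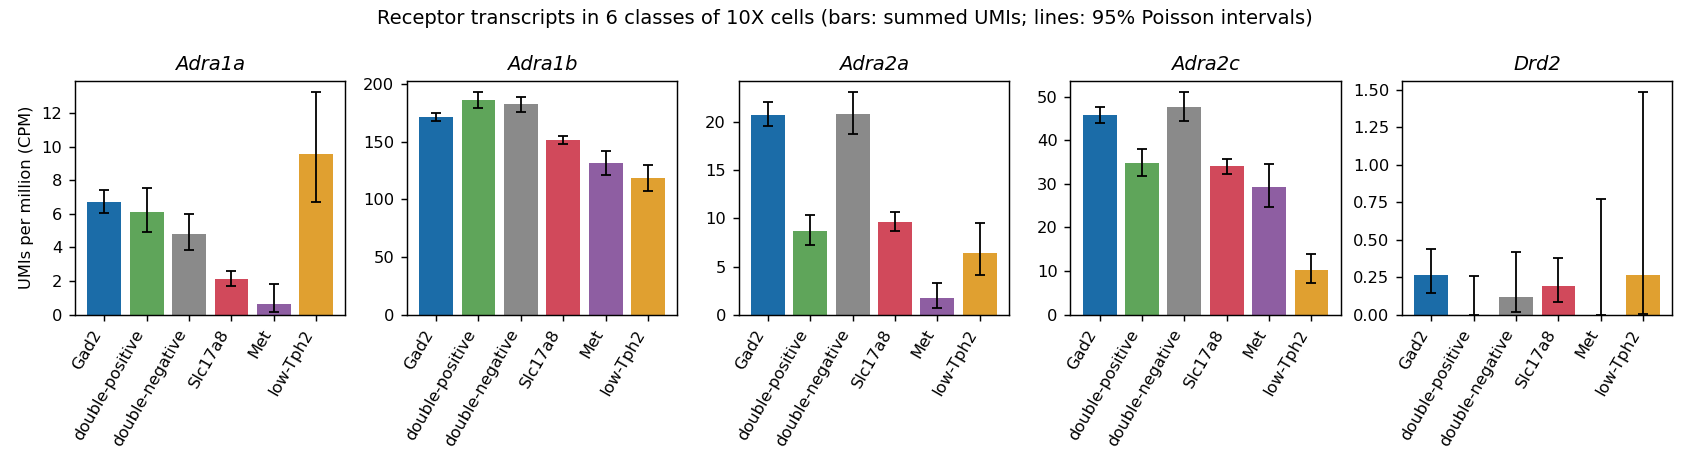
Level of 5 receptor genes in the 6 classes of 10X cells, in CPM (vertical axis, a separate linear scale for each gene); bars are summed UMIs and lines 95% Poisson intervals that cover counting error only. Adra1b stayed between 118 and 186 CPM, whereas Adra1a ranged from 0.627 to 9.58 CPM and Adra2a from 1.67 to 20.9 CPM.

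Adra2a, the alpha2A receptor, divided the classes into a high and a low set. It was 20.9 CPM (18.8 to 23.2) in double-negative and 20.8 (19.6 to 22.1) in Gad2 cells, and these did not differ beyond counting error. It was 9.67 (8.75 to 10.7) in Slc17a8, 8.69 (7.24 to 10.3) in double-positive, 6.39 (4.09 to 9.51) in low-Tph2 and 1.67 CPM (0.721 to 3.29) in Met cells. Only the step between low-Tph2 and Met cells among these last 4 was larger than the intervals. Double-positive cells, which had 200 CPM of Gad2 against 221 in Gad2 cells, sat with the Slc17a8 cells for Adra2a. For Adra1a they sat with the Gad2 cells, a placement that rests on barcode set 2 (7.27 CPM, against 7.66 in Gad2 cells). In set 1 they held 3.07 CPM (1.59 to 5.36) from 12 UMIs, between 4.90 in Gad2 and 1.08 in Slc17a8 cells, and the thinned share was 3.13%, against 11.5% and 3.15%. Against double-positive cells, Gad2 cells had 1 receptor past a 2-fold difference, Adra2a (log2 ratio 1.26, 0.99 to 1.54), as did 3.47% of 11847 genes (1.63% higher and 1.84% lower). Double-negative against Gad2 cells gave no receptor, with 0.706% of 11902 genes called (0.504% higher and 0.202% lower).

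Adra2c, the alpha2C receptor, varied less. Its levels were 47.7 CPM in double-negative and 45.9 in Gad2 cells, 34.8 in double-positive, 34.0 in Slc17a8 and 29.2 in Met cells, and 10.1 (7.16 to 13.9) in low-Tph2 cells. The step from Gad2 to double-positive cells and the step from Met to low-Tph2 cells exceeded the intervals, and the others did not. In the thinned cells, 55.4% of Gad2, 43.6% of Met and 17.5% of low-Tph2 cells had a UMI of Adra2c; unthinned, the shares were 90.0%, 70.9% and 20.6%. Transcripts of ribosomal protein genes also differed between classes, with a median share of UMIs of 10.1% in Gad2, 8.96% in Met and 7.39% in low-Tph2 cells; their part in the Adra2c values was not tested.

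Drd2 was close to absent from the 10X counts. Only 25 UMIs were counted, 1 in each of 25 cells (1.06% of 2350; exact Clopper-Pearson interval 0.690 to 1.57%). Of these cells, 14 were Gad2, 8 Slc17a8, 2 double-negative and 1 low-Tph2. None of the 240 double-positive cells and none of the 103 Met cells had a Drd2 UMI. A count of 0 allows shares of cells with a UMI of up to 1.25% and 2.91% when the limit is set at 3 cells, and up to 1.53% and 3.52% by the Clopper-Pearson interval. Th, the enzyme that defines catecholamine neurons, had a UMI in 1.40% of the cells, so the share for Drd2 was no higher than that of Th, and no expression is read from it. Th is not wholly lacking from Pet1 neurons here, since 4 of the 70 manual cells had at least 10 Th reads; whether the Drd2 UMIs are free RNA was not tested. With 25 UMIs, Drd2 was also below the minimum of 100 UMIs set for the comparisons that follow.

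In the comparison of Slc17a8 with Gad2 cells, 2 of the 4 receptors with enough UMIs were at least 2-fold apart, both lower in Slc17a8 cells, whereas 5.96% of the 12357 genes compared passed that limit in either direction (2.86% higher and 3.09% lower). Adra1a differed by a log2 ratio of -1.66 (95% exact interval -2.01 to -1.32) and Adra2a by -1.11 (-1.27 to -0.94). Adra2c (-0.43) and Adra1b (-0.18) were lower by less than the limit, with intervals that excluded 0. All 4 receptors therefore had their lower level in Slc17a8 cells, and the sizes of the differences did not overlap between Adra1a, Adra2a, Adra2c and Adra1b in their intervals. Both calls were made in each of the 9 alternative settings, including either barcode set alone.

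Met cells compared with all other cells had 2 receptors past the limit, again Adra1a and Adra2a and again lower; 14.8% of 12901 genes passed it (11.1% lower and 3.70% higher). Adra2a was lower by a log2 ratio of -3.21 (-4.43 to -2.23), from 8 UMIs in Met cells against 2026 in the others. For Adra1a the ratio was -3.00 (-5.28 to -1.45), from 3 UMIs against 655. Adra1b (-0.34) and Adra2c (-0.45) were within 2-fold. Set against Slc17a8 cells alone, whose Slc17a8 level was near theirs (338 and 295 CPM), Met cells still held less Adra2a (-2.53, -3.75 to -1.54), 1 receptor called where 10.4% of 11295 genes were (2.79% higher and 7.66% lower), and Adra1a was too sparse there for a call. The 8 and 3 UMIs behind the Met values leave their sizes loose: with all gate limits lowered, the Adra2a ratio against all other cells was -1.34, and in barcode set 1 alone it was -4.81. Met cells were thus left mainly with Adra1b and Adra2c.

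Low-Tph2 cells had 3 receptors past the limit against all other cells: Adra2c (-2.001, -2.50 to -1.54) and Adra2a (-1.26, -1.90 to -0.68) were lower and Adra1a (1.02, 0.49 to 1.51) was higher, where 15.5% of genes passed (6.22% lower and 9.32% higher). The Adra1a value lay at the limit and fell short of it in 6 of the 9 alternatives, among them thinning to 20000 UMIs (0.83), per-cell means (0.85) and barcode set 2 alone (0.81). Adra2a fell short in set 2 alone (-0.98) and with the gate limits doubled (-0.27), and Adra2c passed in all 9, from -2.74 in set 1 alone to -1.11 with the gate limits doubled. These cells had shallower libraries and held 398.5 CPM of Slc18a2 (the vesicular monoamine transporter) and 240 of Slc6a4 (the serotonin transporter), against 2815 and 2468 in Gad2 cells. The oligodendrocyte transcript Mbp was highest in the same class (50.3 CPM, against 19.4 to 28.0 in the others), and Mog, a defining marker of those cells, was at most 1.06 CPM in any class; their part in these differences was not tested.

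The 2 barcode endings of the 10X table mark cell sets that followed the sex of the mice: 830 of 869 cells of set 1 and none of 1481 of set 2 had at least 3 Xist UMIs, and transcripts of Y-linked genes showed the reverse, in 0 and 1442 cells. No barcode was shared. Since the labels do not tie a set to a genotype, sex, genotype and run cannot be told apart. Between the sets, Adra2c was higher in set 1 (47.8 against 35.2 CPM; log2 ratio 0.44, 0.36 to 0.52) and Adra1a lower (3.64 against 5.51; -0.60, -0.86 to -0.35). In Gad2 cells alone the values were 55.5 and 40.8 CPM for Adra2c, and 4.90 and 7.66 for Adra1a. None of the 4 receptors passed 2-fold here, where 1.44% of genes did (0.853% higher and 0.589% lower), and Adra2a (15.6 and 14.7 CPM) did not differ beyond counting error.

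The classes rest on fixed limits, so the receptors were also read along the levels of the gating genes, over the cells outside the Met and low-Tph2 classes. Adra2a was 21.8 CPM in cells with no Slc17a8 UMI and 18.7 in cells under 50 CPM of it, then 10.9, 9.66 and 7.37 CPM in cells at 50 to 200, 200 to 400 and above 400 CPM. Adra1a was 6.15 and 6.46 CPM in the first pair of these bins and 3.53, 3.14 and 2.72 in the others. For both genes the largest step lay between the bins under 50 and at 50 to 200 CPM of Slc17a8. That bin edge was set in advance at the limit used for the classes, so the bins cannot place the step more finely.

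Along Gad2 the pattern was not a straight one. Adra2a was 11.0 CPM with no Gad2 UMI, 20.5 at 50 to 200 CPM and 12.8 (10.4 to 15.5) above 400 CPM, so that the cells richest in Gad2 held less of it than cells with moderate Gad2. Adra1b followed the same course, with 158, 191 and 141 CPM in these bins. Along Tph2, Adra1a was 7.30 CPM (5.56 to 9.42) at 500 to 1500 CPM and 3.16 (2.22 to 4.36) above 4500 CPM, and Adra1b 211 and 153 CPM. Adra2c was highest in between, with 44.9 CPM at 1500 to 2500 CPM of Tph2 and 33.4 and 34.3 at the ends. Median UMIs per cell were 42195 in the lowest and 70191.5 in the highest Tph2 bin; the part of depth in these values was not tested.

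**Figure D2:**
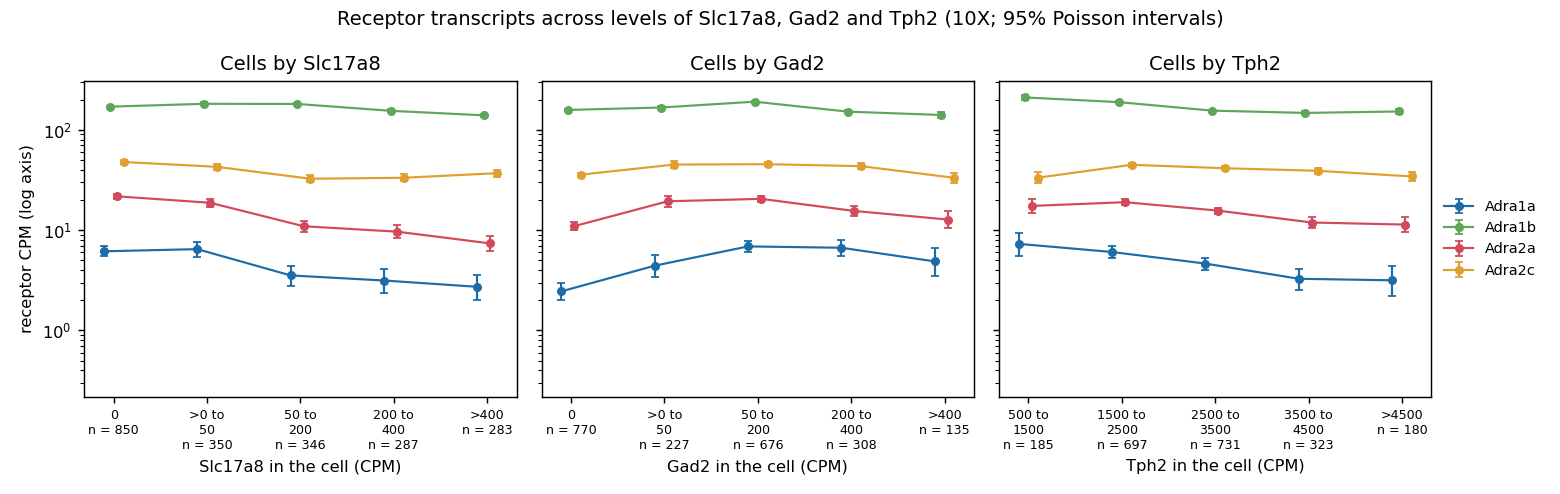
Receptor CPM (log axis) in 10X cells outside the Met and low-Tph2 classes, binned by the cell's own CPM of Slc17a8, Gad2 or Tph2; points are summed UMIs, lines 95% Poisson intervals and n the cells in a bin. Adra2a went from 21.8 CPM without Slc17a8 to 7.37 CPM above 400 CPM of Slc17a8, and Adra1a was 2.45 CPM without Gad2 and 6.88 at 50 to 200 CPM of Gad2.

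Cells with at least 3 UMIs of each of 14 subtype markers were compared with all other cells. Adra1a was lowest in Npas1 cells (log2 ratio -2.93, -5.98 to -1.07; 2 UMIs in 55 cells), Met cells (-2.86) and P2ry1 cells (-2.83; 2 UMIs in 54 cells), and low in Rorb cells (-1.43, -2.03 to -0.88). It was high in Pou3f2 cells (1.13, 0.81 to 1.44), Nfib cells (1.12, 0.64 to 1.58) and Trh cells (0.99, 0.67 to 1.29).

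Adra2a had its high values in Trh cells (1.06, 0.89 to 1.23) and Sox14 cells (0.83, 0.66 to 0.99). Its low values were in Met cells (-3.08), P2ry1 cells (-1.996, -3.00 to -1.15), Nfib cells (-1.22) and Maf cells (-1.03). Npas1 cells, nearly empty of Adra1a, held Adra2a at 0.20 (-0.22 to 0.60), and Pou3f2 cells, high in Adra1a, held Adra2a at -0.49 (-0.77 to -0.21). The low and high cells of these genes were therefore not always the same, although both were low with Met and P2ry1.

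Adra1b stayed within 2-fold for all 14 markers, from -0.58 (-0.65 to -0.50) in Rorb cells to 0.71 (0.65 to 0.77) in Pou3f2 cells. Adra2c passed 2-fold for 1 marker, Gpr101 (-1.26, -1.81 to -0.76), whose 47 cells had a median of 34914 UMIs. Trh cells, the only marker set in which all 4 receptors were above the other cells, held 8.85 CPM of Adra1a, 187 of Adra1b, 28.6 of Adra2a and 52.0 of Adra2c. These marker sets overlap each other and share libraries, so the ratios are not independent.

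**Figure D3:**
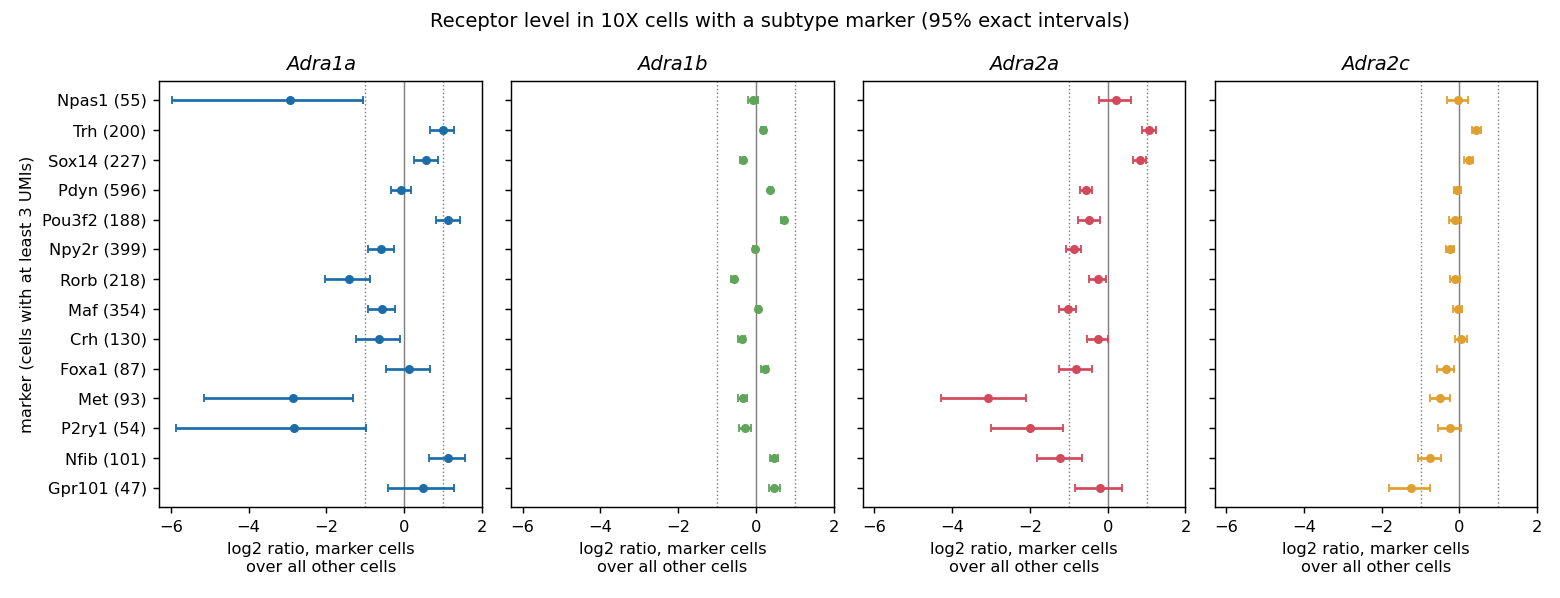
Log2 ratio of receptor CPM in 10X cells with at least 3 UMIs of a subtype marker (rows, with the number of cells) over all other cells; points are ratios, lines 95% exact intervals and dotted lines mark 2-fold. Adra1b lay between -0.58 and 0.71 throughout, and Adra1a and Adra2a were both low with Met and P2ry1.

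How often alpha1 and alpha2 transcripts met in the same cell was read in cells thinned to 20000 UMIs. A UMI of Adra1a or Adra1b together with one of Adra2a or Adra2c was found in 66.3% of double-negative (60.8 to 71.6), 63.3% of Gad2 (60.0 to 66.5), 53.6% of Slc17a8 (49.7 to 57.4) and 51.1% of double-positive cells. The share was 42.6% in Met and 19.2% (12.6 to 27.4) in low-Tph2 cells. Alpha1 without alpha2 was found in 29.8% of Gad2, 44.6% of Met and 58.3% of low-Tph2 cells, and alpha2 without alpha1 in at most 5.83% of any class. In unthinned cells, 94.7% of Gad2, 73.8% of Met and 24.4% of low-Tph2 cells had both. Adra2a and Adra2c occurred together in 19.1% of thinned Gad2 cells, 8.98% of Slc17a8 cells and 1 of 101 Met cells.

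**Figure D4:**
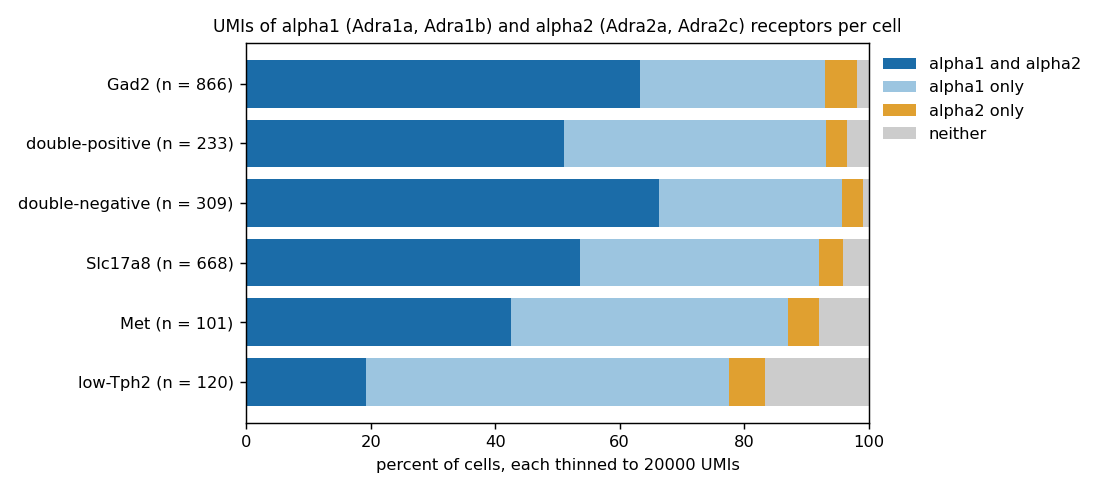
Share of 10X cells in each class (rows) with UMIs of alpha1 receptors, alpha2 receptors, both or neither, after thinning each cell to 20000 UMIs; n is the number of thinned cells. Cells with both made up 63.3% of the Gad2 class and 19.2% of the low-Tph2 class, and cells with alpha2 alone at most 5.83% of a class.

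In the manually sorted cells, full-length libraries gave 756872 to 7664100 reads per cell, and a level is a cell's CPM. Adra1b was again the receptor found nearly everywhere, with at least 10 reads in 68 of 70 cells. Its median was 126 CPM (lowest 10.3, highest 168) in the 9 Npy2r rDR cells, 86.4 (21.7 to 145) in Npy2r cDR, 72.8 (45.3 to 176) in Sert vmDR and 69.7 (0 to 130) in Sert dmDR cells. Sert dlDR cells had a median of 57.9 (8.60 to 115), Sert cDR cells 56.0 (13.8 to 150), Crh rDR cells 50.5 (26.2 to 166) and P2ry1 cDR cells 46.3 (1.25 to 75.1). The ranges of all 8 groups overlapped. Ages within a group differed too: the 4 Sert vmDR cells at 63 days lay between 45.3 and 56.6 CPM and the 4 at 90 days between 89.0 and 176 CPM, whereas the ages overlapped in Sert dlDR and dmDR cells.

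The 1 cell with no Adra1b read, a Sert dmDR cell at 63 days, held 15 reads of Adra1d (4.44 CPM), the highest Adra1d count of the table. Adra1d, the alpha1D receptor, was otherwise found in 4 cells with fewer than 10 reads each and was at 0 in the other 65. Adra1d reads were found in Sert dmDR, Npy2r cDR and Npy2r rDR cells alone. Because counting by strand is not stated for these libraries, reads from the overlapping Gm14285 cannot be told apart from Adra1d.

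Adra1a was found in 13 of 70 manual cells, 9 of them with at least 10 reads. The highest value, 129 CPM (672 reads), was in a single Npy2r rDR cell whose 8 companions were at 0. Sert dmDR cells had 3 of 9 cells above 10 reads (up to 43.1 CPM), Npy2r cDR 2 of 10 (up to 40.2), and Sert dlDR, vmDR and cDR 1 each. No read was found in the 10 P2ry1 cDR cells or the 8 Crh rDR cells, which, at 3 cells of the total, allows shares of cells with a read of up to 30.0% and 37.5%.

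Adra2a separated the groups most clearly by presence. All 10 Sert dlDR cells had at least 10 reads of it, with a lowest value of 9.24, a median of 19.8 and a highest of 95.4 CPM. All 10 P2ry1 cDR cells had none. The other groups were mixed: at least 10 reads were found in 6 of 9 Sert dmDR, 4 of 8 Sert vmDR, 4 of 6 Sert cDR, 5 of 10 Npy2r cDR, 4 of 9 Npy2r rDR and 6 of 8 Crh rDR cells. The highest single value, 194 CPM, was in a Sert cDR cell, a group whose median was 12.6 CPM. In Npy2r cDR cells the 4 at 77 days were all at 0 and 5 of the 6 at 87 days had at least 10 reads, so age and Adra2a moved together there.

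The P2ry1 cDR group was also the group with Met: 9 of its 10 cells had at least 10 Met reads, against 1 of the other 60 cells. The Met class of the 10X cells and the P2ry1 cDR cells, which come from different mice and library kits, had the lowest Adra2a levels of their tables, 1.67 CPM and no read.

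Adra2c reached at least 10 reads in 51 of 70 manual cells and was found in every group. Its median was 32.4 CPM (12.6 to 51.4) in Sert dlDR, 29.1 (0 to 123) in Crh rDR and 26.8 (0 to 68.4) in Npy2r cDR cells. Lower medians were found in Sert dmDR (18.0), Npy2r rDR (16.6), Sert vmDR (13.4), Sert cDR (6.53) and P2ry1 cDR cells (3.38). The last pair of groups held both cells at 0 and cells near 100 CPM, with highest values of 130 and 106 CPM, so every group's range overlapped every other's. Of the P2ry1 cDR cells, 5 had at least 10 reads of Adra2c and 4 had Adra1b without any alpha2 receptor at that limit.

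**Figure D5:**
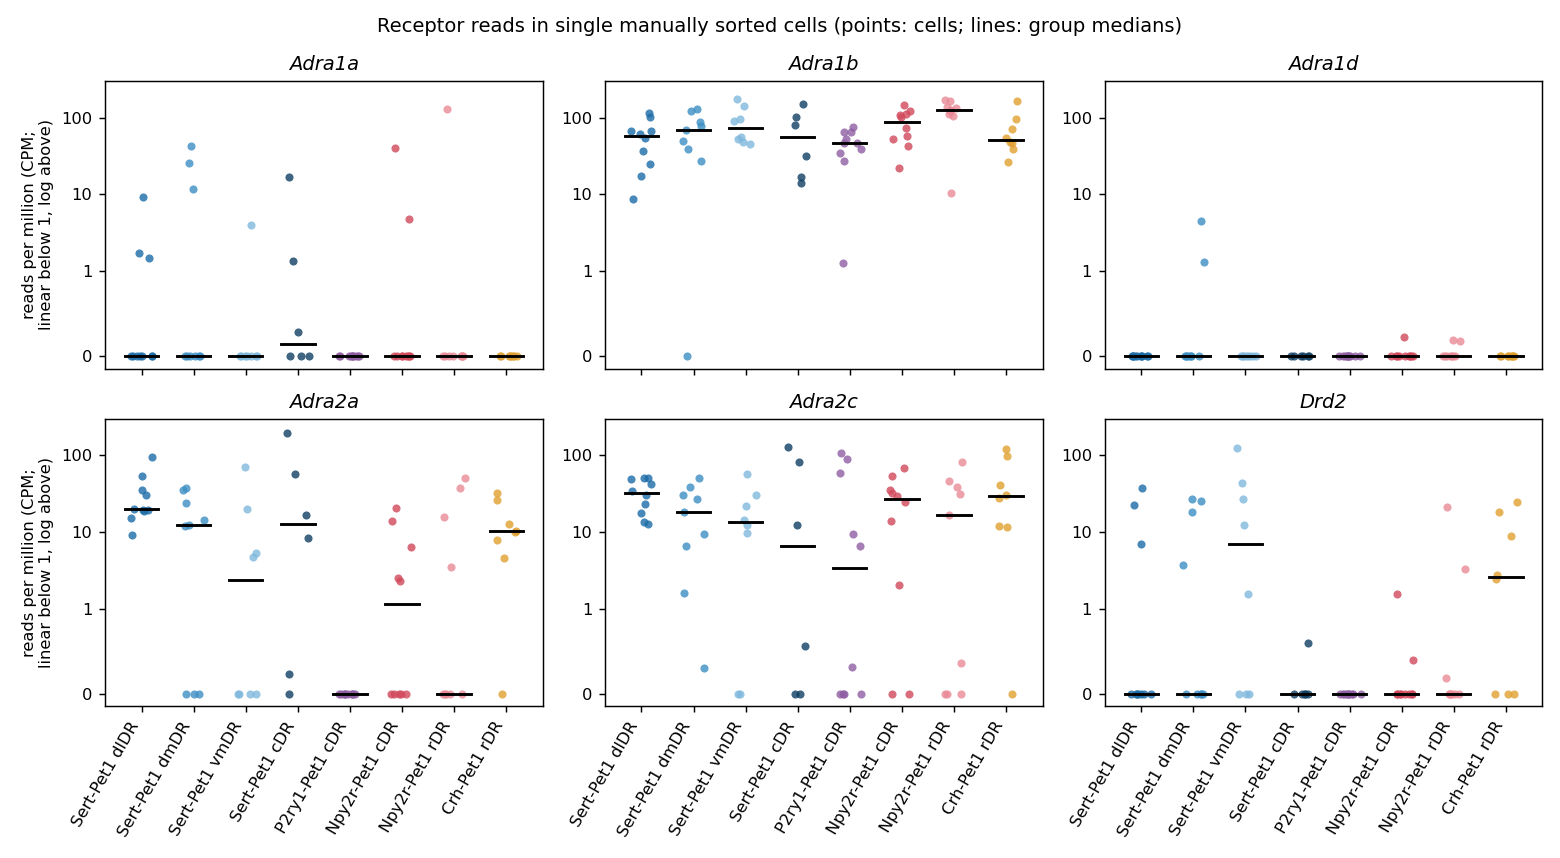
CPM of the 6 receptor genes in each of the 70 manually sorted cells (points; vertical axis linear below 1 CPM and logarithmic above), by group, with group medians as lines. Adra2a was at 0 in all 10 P2ry1 cDR cells and between 9.24 and 95.4 CPM in all 10 Sert dlDR cells. The highest Drd2 median and single value were in Sert vmDR cells, of which 4 of 8 had at least 10 reads, as in Crh rDR cells.

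Drd2 was found in 23 of the 70 manual cells, 18 of them with at least 10 reads. In the 8 Sert vmDR cells it ran from 0 through a median of 6.99 to 124 CPM, with 4 cells at 10 or more reads. Crh rDR (4 of 8 cells, up to 24.8 CPM), Sert dmDR (4 of 9, up to 26.9), Sert dlDR (3 of 10, up to 37.4) and Npy2r rDR cells (2 of 9, up to 21.3) followed. The 3 caudal groups were nearly empty of it: no read in 10 P2ry1 cells, at most 2 reads in 6 Sert cells and at most 10 reads in 10 Npy2r cells.

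The Drd2 cells held serotonin transcripts, as did the others: all 18, and all 52 cells without Drd2 at that limit, had at least 10 reads of Tph2 (medians 11768 and 9176 CPM) and of Fev. None had a read of Th, Dbh (the noradrenaline-synthesizing enzyme) or Slc6a2 (the noradrenaline transporter), and 1 had a read of Slc6a3, the dopamine transporter. Nr4a2, a transcription factor of dopamine neurons, had at least 10 reads in 2 of the 18 and 3 of the 52. Among the 52 cells, 4 had at least 10 Th reads and 2 at least 10 Dbh reads. Gad2 was present in 12 of the 18 and Slc17a8 in 10, against 21 and 33 of the 52. This split is tied to subregion, since the caudal groups were nearly empty of Drd2. At least 10 Gad2 reads were found there in 0 of 6 Sert, 0 of 10 P2ry1 and 3 of 10 Npy2r cells. For Slc17a8 these counts were 6, 10 and 9. The part of subregion in the split was not tested.

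In all, 6 pairs of manual groups were set side by side by the ratio of their mean CPM, each group counted as 1 sample. These ratios of means follow single cells closely, and many genes pass 2-fold. Among P2ry1 and Sert cells of the cDR, 1 receptor passed, where 37.9% of 10713 genes did (17.7% higher and 20.2% lower). This was Adra2a, lower in P2ry1 cells, which held no read of it, so no fold is given. The Sert mean of 46.3 CPM rested largely on the cell at 194 CPM. Adra1b (-0.53) and Adra2c (-0.46) were within 2-fold, though Adra2c was called at the most frequent age of each group alone (-1.11). Npy2r cells of the cDR against the rDR gave Adra1a (-1.67) and Adra2a (-1.38) as lower, where 24.1% of 10648 genes passed (10.6% higher and 13.4% lower). The Adra1a value turns to 2.60 without the highest cell of each group, and Adra2a was not called with summed reads (-0.89) or at the most frequent age alone (-0.999).

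Crh against Npy2r cells of the rDR gave 2 receptors, with 22.1% of 10674 genes past the limit (11.2% higher and 10.9% lower). Drd2 was higher (1.37). Adra1a was lower on the strength of 1 Npy2r cell, the Crh cells holding no read of it, so no fold is given. At the most frequent age of each group alone, Adra1a was no longer called, Adra1b was (-1.06), and the Drd2 ratio was 3.797. Within the Sert line, dlDR against dmDR cells gave Adra2a as higher (1.07) and Adra1a as lower (-2.86), with 19.4% of genes past the limit (8.04% higher and 11.4% lower). For dmDR against vmDR cells, Adra1a was higher (4.17) and Drd2 lower (-1.66), with 22.2% (9.55% higher and 12.6% lower). At 63 days alone Drd2 was not called (-0.58): in vmDR cells its median was 0.775 CPM at 63 days, with 1 of 4 cells at 10 or more reads, and 27.9 CPM at 90 days, with 3 of 4. Caudal against vmDR cells gave Drd2 as lower, from 2 reads over the 6 caudal cells (means of 0.0997 and 26.0 CPM, too few reads for a fold), and Adra2a (1.88) and Adra2c (1.03) as higher, with 28.8% (13.0% higher and 15.8% lower). The Adra2c medians ran the other way (6.53 CPM in caudal and 13.4 in vmDR cells), with at least 10 reads in 3 of 6 and 6 of 8 cells. Adra1b passed in none of the 6 pairs, with ratios from -0.82 to -0.28. Without the highest cell of each gene in each group, several of these calls changed. Crh against Npy2r cells then gave Adra1b alone (-1.07), Adra1a and Drd2 being under the minimum level, and dlDR against dmDR cells gave Adra2a alone (1.00046). For dmDR against vmDR cells Adra2a (1.51) took the place of Adra1a, and for caudal against vmDR cells Adra2c was no longer called (0.56). Adra2a was still called as lower in P2ry1 cells, which held no read of it.

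Full-length reads scale with transcript length, so receptors were compared with one another per kilobase of exonic sequence. Over all 70 cells, the median level was 19.4 CPM per kilobase for Adra1b, 5.20 for Adra2c and 1.04 for Adra2a, and 0 for Adra1a, Adra1d and Drd2. Adra1b stood above Adra2c and Adra2c above Adra2a in 7 of the 8 groups, for example in Sert dlDR cells (17.1, 9.40 and 4.09). In Sert cDR cells Adra2a (2.60) stood above Adra2c (1.89), and in Sert vmDR cells Drd2 (2.74) stood above Adra2a (0.487).

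Across the 2 kits, 4 of the 5 shared receptors had like shares of cells with a count, and Drd2 did not. A UMI or read was found in 98.4% and 98.6% of 10X and manual cells for Adra1b, 81.1% and 80.0% for Adra2c, 47.5% and 58.6% for Adra2a, and 22.7% and 18.6% for Adra1a. For Drd2 the shares were 1.06% and 32.9% (22.1 to 45.1). Its mean CPM in the manual cells was 6.19, against 0.184 in the 10X table, a log2 ratio of 5.07; 27.0% of 13946 shared genes with at least 10 UMIs were at least 2-fold higher in the manual table and 12.3% lower, and 99.8% of them had a ratio at or below that of Drd2. The same ratio was between -1.16 and 0.05 for the other 4. The kits, mice, drivers and subregions all differed between the tables, so their parts in the Drd2 difference cannot be told apart.

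Genes whose pattern over the 2350 cells came closest to each receptor were named by Pearson's r of log values, among the 11479 other genes with a UMI in at least 10% of cells. For Adra1b they were Sorcs1 (r = 0.47), Ret (0.45) and Rprm (0.44), with r of 0.58, 0.50 and 0.51 in Gad2 cells alone and 0.27, 0.36 and 0.43 in Slc17a8 cells alone. For Adra2a they were St8sia2 (0.39), Prkcq (0.37) and Ptprt (0.35), with 0.39, 0.29 and 0.32 in Gad2 cells and 0.13, 0.07 and 0.17 in Slc17a8 cells. For Adra1a they were Asb4 (0.30), St8sia2 (0.25) and B3galt1 (0.23). St8sia2, a polysialyltransferase, was thus near both receptors that were low in Slc17a8 cells. For Adra2c they were the ribosomal protein genes Rpl13 (0.33), Rps2 (0.32) and Rpl9 (0.32), and its r with the ribosomal share of a cell was 0.30. The receptors themselves were weakly related, with r from -0.04 to 0.16 for all pairs. These values are descriptions: the cells share libraries and depth, and in sparse counts a low r shows little.

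Transcripts for the rest of the pathway were read from a list of G proteins, effectors, desensitizing proteins and enzymes. The alpha subunits of G proteins were all present in the 10X table and none of the 8 passed 2-fold in the 3 class comparisons. Of all genes, 5.96% passed in Slc17a8 against Gad2 cells, 14.8% in Met cells and 15.5% in low-Tph2 cells, so none among 8 shows little. Gnaq (202 CPM) and Gna11 (215) serve alpha1 receptors, and Gnai1 (381), Gnai2 (366), Gnai3 (19.2), Gnao1 (545) and Gnaz (144) serve alpha2 and D2 receptors.

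Effectors differed more. In Slc17a8 against Gad2 cells, 3 of 14 were higher and none lower, where 2.86% of all genes were higher and 3.09% lower. These were Plcb1, a phospholipase C of the Gq route, at 36.9 and 5.64 CPM (2.71), Prkce, a protein kinase C (1.86), and Trpc5, a cation channel (1.14). The median log2 ratio of these 14 was 0.41 and that of all genes -0.01. In Met cells, 5 of 14 were lower and 2 higher, where 11.1% of all genes were lower and 3.70% higher. The lower ones included Kcnj3 (-1.67) and Kcnj6 (-1.63), subunits of the potassium channel that alpha2 and D2 receptors open, and the higher ones were Plcb4 (1.64) and Itpr1 (1.36). Rgs2, which shortens Gq signals, was the 1 of 10 desensitizing genes that passed there (-1.67).

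In low-Tph2 cells, where 9.32% of all genes were higher and 6.22% lower, 4 of 14 effectors were higher, led by Trpc5 (3.90) and Prkce (3.66). Rgs2 was lower (-2.50) while Rgs4 was higher (1.92). Ddc, Slc18a2 and Maob, which make, store and break down monoamines, were 3 of 5 such genes that were lower (-1.64, -2.60 and -2.27). The catecholamine enzymes Th (0.258 CPM) and Dbh (0.0812 CPM) were near 0 over all 10X cells. Markers of dopamine neurons summed to between 0.627 and 2.93 CPM per class, 4 of 5 being in the table, and the 4 serotonin markers to between 971 and 8468 CPM.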

How the data were processed

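The members and the gene lists were chosen with earlier results of these data known. The authors deposited raw counts without normalization: UMI counts per gene and cell for the 10X table, which they had filtered for low-quality cells, low Fev and rarely detected genes, and read counts per gene and cell for the manual table. Per the labels, libraries were 10X 3' v3 and SMART-Seq v4 with Nextera XT. The submitters' processing notes name STAR 2.5.4, Cell Ranger 3.0.2, R 3.5.3 and mm10; counting by strand is not given in the sources used here.

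CPM was computed from all genes of a table. In the 10X table (median 59646 UMIs per cell), UMIs were summed over the cells of a class, with exact Poisson intervals; ratios had exact conditional intervals. Genes needed 100 UMIs over both sets of cells (10X) or a mean of 5 CPM in either group (manual), and were called at a log2 ratio of 1 or -1. A group at 0 was set to a floor of 3 counts over the group. No test was run, since no animal is named, and each group counts as 1 sample. Shares of cells have exact Clopper-Pearson intervals. Intervals and floors cover counting error at 95% only, and reads without molecular identifiers are not independent molecules. No doublet caller was run; leaving out the 5% of cells with the most UMIs was an alternative. Named genes were the members, the gating genes, the 3 genes of highest r to a member, listed pathway genes past 2-fold and the subtype markers; pathway and cell type genes without calls were named afterwards for orientation. Tools were Python 3.11.15, numpy 2.4.6, scipy 1.17.1, pandas 2.3.3, matplotlib 3.10.9, R 4.3.3 and edgeR 4.0.16 (TMM factors only), and the ratio steps were tested on simulated data. Other alternatives were thinning, per-cell means, barcode sets, gate limits halved or doubled, totals without mitochondrial genes, no minimum and, for manual cells, summed reads, no highest cell and 1 age per group. Thinning used seed 1. Some listed genes are not reported here.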

Additional observations from a re-analysis of the deposited data

Results flagged for a closer look

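In 15 of 48 pairs of a receptor and a manual group, 1 cell lay further from the others than a gap test at the 95% level allows, where chance flags about 1 in 20 groups. For sparse genes, most of whose cells are at 0, such a gap is the usual shape of the data. The highest Adra1a cells were at 9.11 CPM in Sert dlDR, 3.96 in Sert vmDR, 16.8 in Sert cDR, 40.2 in Npy2r cDR and 129 in Npy2r rDR. For Adra2a they were at 95.4 CPM in Sert dlDR, 70.3 in Sert vmDR and 194 in Sert cDR. For Drd2 they were at 124 CPM in Sert vmDR, 0.598 in Sert cDR, 1.54 in Npy2r cDR and 21.3 in Npy2r rDR. For Adra1d they were at 4.44 CPM in Sert dmDR and 0.226 in Npy2r cDR. The 1 low outlier was an Npy2r rDR cell at 10.3 CPM of Adra1b.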

How the results depend on the processing

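The number of receptors past 2-fold was within 1.5 times the reported count in 25 of 27 alternatives for the 10X comparisons and 27 of 36 for the manual ones. This measure takes 3 becoming 2 as unchanged and does not follow which receptors were called. For low-Tph2 cells, 3 became 1 in barcode set 2 alone and with doubled gate limits. There 3 became 2, with Adra1a lost, in thinned cells, with per-cell means, with halved gate limits and without the cells of most UMIs. For P2ry1 against Sert cDR cells, 1 became 2 with no minimum of CPM (adding Adra1a) and with the most frequent age alone (adding Adra2c). For Npy2r cDR against rDR cells, 2 became 1 with summed reads and with 1 age, where Adra2a was lost, and without the highest cells, where Adra1a was; the Adra1a log2 ratio of -1.67 turned to 2.60 without the highest cells and to 5.49 with 1 age. For Crh against Npy2r rDR cells, 2 became 4 with summed reads and 1 without the highest cells. For Sert dlDR against dmDR cells, 2 became 1 without the highest cells, and for dmDR against vmDR cells, 2 became 1 with 1 age. The causes were not tested.

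No paired analysis was possible because each replicate number is a single cell, no label ties equal numbers to 1 animal, and no test was run. In Slc17a8 against Gad2 cells, Adra1a ranged from -2.18 to -1.41 and Adra2a from -1.20 to -1.03 over the 9 alternatives; in Met cells Adra2a ranged from -4.81 to -1.34. Few counts stand behind Adra1a in Met cells (3 UMIs) and Drd2 in every class (25 in all), which limits the precision of their values.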
